A study of Mus musculus with 6 samples.

Results

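The CXC chemokine ligands are small secreted or membrane-bound proteins that direct the migration of leukocytes, and 10 of their genes, Cxcl1, Cxcl2, Cxcl3, Cxcl9, Cxcl10, Cxcl11, Cxcl12, Cxcl13, Cxcl14 and Cxcl16, were followed here by their symbols among the 41079 genes of the RNA-seq tables. All 10 were listed, with both a raw read count and an FPKM value (fragments scaled by gene length and library size) in every library. The cells were primary microglia, the resident macrophages of the brain, shaken off mixed glial flasks that were fed medium conditioned by L-929 cells. Each flask pooled the brains of several neonatal C57Bl/6N mice of both sexes aged 1 to 3 days. Per the study's methods, microglia were harvested weeks after the brains were taken, so this age is that of the donors. In 3 control libraries the microglia were kept in serum-free DMEM/F12. In 3 optimized libraries the medium held TGFbeta, IL34 and CX3CL1 at 100 ng/mL each. Per the study's methods these were human proteins, and cholesterol, insulin-transferrin-selenium and a collagen IV coating were added. The agents were given together, so their parts cannot be told apart, and cells of all libraries met serum briefly on adhesion. The comparison asks how far culture conditions that imitate the niche of the brain change the chemokine transcripts of microglia. The study's methods call the 3 samples of a group biological replicates, and where they share a preparation the p-values below measure only the spread between these samples.

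CXC chemokines carry 4 conserved cysteines, the first pair of which is separated by a single residue, and they signal through G-protein-coupled receptors. Cxcl1, Cxcl2 and Cxcl3 bind CXCR2 and attract neutrophils, and their transcription by macrophages depends on NF-kB. Cxcl9, Cxcl10 and Cxcl11 are induced by interferons and attract activated T cells and NK cells through CXCR3. Cxcl12 binds CXCR4 and the scavenger ACKR3, Cxcl13 attracts B cells through CXCR5, and Cxcl14 is a homeostatic ligand whose receptor is less settled. Cxcl16 is made as a transmembrane protein, acts as an adhesion molecule and scavenger receptor in that form, and is shed by ADAM10 and ADAM17 as a soluble ligand of CXCR6.

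The sequences just upstream of Cxcl1, Cxcl2, Cxcl10 and Cxcl9 are shown because NF-kB and interferon regulatory factors are known to act on inflammatory members through such stretches, and because these members are compared pairwise below. Each runs 5′ to 3′ over the 250 bases before the RefSeq transcription start, and the capitals mark matches to the kappaB consensus, to the ISRE core (GAAA, then any 2 bases, then GAAA) and to the AP-1 letters TGANTCA, searched on both strands.
Cxcl1: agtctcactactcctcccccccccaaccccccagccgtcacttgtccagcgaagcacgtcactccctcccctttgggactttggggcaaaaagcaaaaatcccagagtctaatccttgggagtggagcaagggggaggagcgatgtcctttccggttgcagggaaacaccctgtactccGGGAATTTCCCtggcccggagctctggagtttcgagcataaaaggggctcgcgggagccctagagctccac
Cxcl2: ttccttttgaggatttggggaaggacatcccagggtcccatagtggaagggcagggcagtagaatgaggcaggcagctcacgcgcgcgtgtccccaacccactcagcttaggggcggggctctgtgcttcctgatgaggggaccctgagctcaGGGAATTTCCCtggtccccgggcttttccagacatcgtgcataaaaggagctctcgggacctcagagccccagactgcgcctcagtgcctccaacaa
Cxcl10: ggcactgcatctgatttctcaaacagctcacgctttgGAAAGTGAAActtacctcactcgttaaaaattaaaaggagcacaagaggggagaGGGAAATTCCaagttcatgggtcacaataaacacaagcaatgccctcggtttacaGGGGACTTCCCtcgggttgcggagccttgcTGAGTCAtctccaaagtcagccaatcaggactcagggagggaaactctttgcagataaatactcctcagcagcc
Cxcl9: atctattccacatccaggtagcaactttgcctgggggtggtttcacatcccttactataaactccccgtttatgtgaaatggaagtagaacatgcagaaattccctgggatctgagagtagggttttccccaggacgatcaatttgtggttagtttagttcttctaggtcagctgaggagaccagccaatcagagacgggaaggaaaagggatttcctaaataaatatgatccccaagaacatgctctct
GENCODE places some of these starts slightly further upstream, so the last bases of a window can fall inside the gene. These stretches lie on GRCm39 at chr5:91038854-91039103 on the plus strand for Cxcl1, chr5:91051508-91051757 on the plus strand for Cxcl2, chr5:92496749-92496998 on the minus strand for Cxcl10 and chr5:92475939-92476188 on the minus strand for Cxcl9. Cxcl1 and Cxcl2 held the same 11 letters, GGGAATTTCCC, at positions -71 to -61 and -97 to -87 from the start, and Cxcl3 held them at -73 to -63. These letters were searched after the sequences had been seen, match the kappaB consensus on both strands, and occurred in 14 of the 32851 promoters of the RefSeq table (0.04%). The kappaB consensus as a whole was present in 7.25% of the promoters. In Cxcl10 it matched at -159 to -150 and in overlapping positions from -104 to -94, beside an ISRE core at -213 to -204 (2.98% of promoters) and an AP-1 match at -74 to -68 (6.75%). The Cxcl9 window held none of the capitalised letters, but it held TATAAA, which is not capitalised, at -195 to -190 (12.37% of promoters). Of the members not printed, Cxcl14 held an ISRE core at -172 to -163 and a GAS core, TTCNNNGAA, at -191 to -183 (7.02% of promoters). Cxcl3 held TATAAA at -30 to -25 besides its kappaB letters. Cxcl13 held only TATAAA, at -46 to -41, and Cxcl12 held none of the letters searched. The SMAD letters GTCTAGAC, found in 0.17% of promoters, were in none of the 8 members with an entry. The Cxcl12 window, at chr6:117145246-117145495 on the plus strand, lies wholly inside the gene as GENCODE places it. Its lack of matches therefore does not describe the sequence upstream of the GENCODE start. Cxcl11 and Cxcl16 had no entry in the table.

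**Figure D1:**
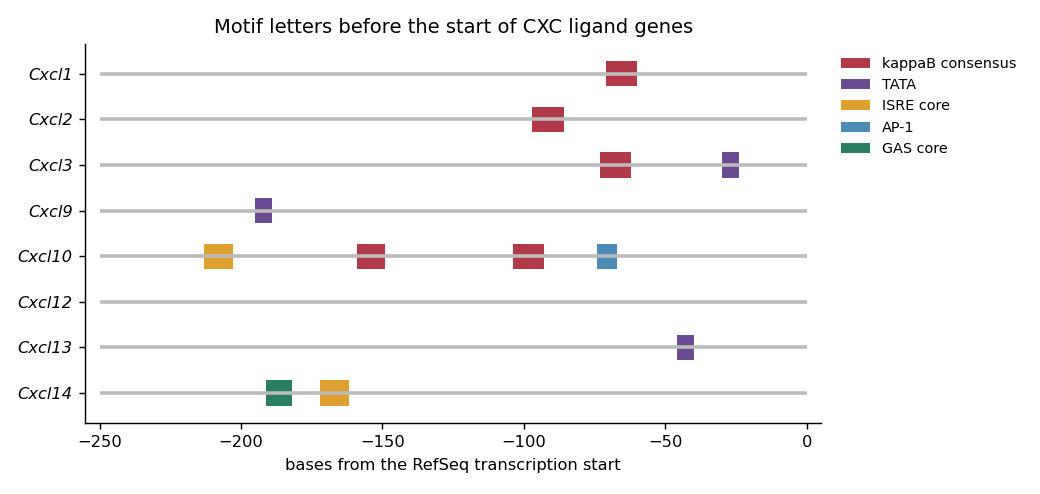
Matches to each set of letters in the 250 bases before the RefSeq start of 8 CXC ligand genes, with the distance from the start in bases on the x axis and 1 line per gene. The kappaB matches of Cxcl1, Cxcl2 and Cxcl3 sit between -97 and -61, and Cxcl10 is the line with kappaB, ISRE and AP-1 matches together.

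The libraries held 20628148 to 27261839 counts. Summed markers of microglia reached 6355 to 6448 CPM (counts scaled to a common library size and composition) in the control and 10773 to 12388 in the optimized libraries, with all 8 markers detected. The neutrophil genes S100a9, Ly6g, Mpo and Elane were at 0 in every library, whereas Camp had at most 5 counts in a library. S100a8, also a neutrophil marker, had 2, 4 and 6 counts in control and 30, 72 and 30 counts in optimized cultures. Cd3e, Cd8a, Nkg7 and Gzmb of T and NK cells, Pax5 of B cells and Flt3 and Ccr7 of dendritic cells were at 0 throughout. The summed markers of other cells moved with the groups as well, from 166 to 168 CPM to 624 to 776 CPM for the oligodendrocyte lineage (2 of 6 tested markers higher), from 33.4 to 36.2 CPM to 22.1 to 25.7 CPM for astrocytes (1 of 6 lower), from 8.16 to 8.61 CPM to 4.50 to 5.49 CPM for dendritic cells (1 of 1 lower) and from 0.219 to 0.329 CPM to 1.55 to 3.11 CPM for neutrophils (1 of 1 higher). Single genes made up most of the shift in the oligodendrocyte lineage, in astrocytes and in neutrophils. The means in control and optimized cultures were 31.2 and 510 CPM for Cspg4 of the oligodendrocyte lineage and 16.5 and 4.64 CPM for Aldh1l1 of astrocytes. For S100a8 of neutrophils they were 0.157 and 1.98 CPM. S100a8 passed the filter on low counts only through the optimized libraries, so its call says little. The astrocyte genes Gfap (4.18 and 4.68 CPM) and Gja1 (5.64 and 7.94 CPM) did not pass the test. Summed markers of border-associated macrophages were 932 to 1034 CPM in control and 472 to 628 CPM in optimized cultures, with 2 of 5 tested markers lower and 2 higher, and the part of any of these cells in the results below was not tested. Optimized replicate 1 stood apart by 65 genes with at least 20 counts there and at most 1 in every other library, a pattern met by 0 or 1 gene in each of the others. Optimized replicate 3 stood apart by its summed fibroblast markers, 151 CPM against 31.0 to 48.8 CPM in the other 5 libraries. In such bulk libraries, fewer cells that express a gene and less RNA per cell cannot be told apart.

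Microglia in the optimized conditions held less Cxcl2, Cxcl9, Cxcl10 and Cxcl13 transcript than control microglia, and more Cxcl14. The decreases ranged from 3.85-fold for Cxcl10 to 17.1-fold for Cxcl13, and the increase of Cxcl14 was 4.72-fold. Cxcl1, Cxcl11, Cxcl12 and Cxcl16 did not pass the test, and Cxcl3 had too few counts to enter it. Of the 9 tested ligands, 4 were therefore called lower and 1 higher by the edgeR quasi-likelihood test (Benjamini-Hochberg adjusted p under 0.05), against 15.2% of all 14618 tested genes called lower, 14.7% called higher and 29.8% called in either direction. The groups did not overlap for 6 of the 9 ligands, compared with 43.9% of all tested genes. In 5 of these every optimized library was below every control library (22.5% of all tested genes), and in 1 it was above (21.4%). The median log2 fold change was -0.32 over the 9 ligands and 0.0079 over all tested genes. Cxcl9 and Cxcl13 passed the filter on low counts only through the control libraries, and with at least 10 counts demanded of every library 2 ligands were lower. About as many genes rose as fell in the transcriptome (49.1% of the called genes were higher), whereas scaling by library size alone, which moved the median of all genes to -0.12, left 32.3% higher. The counts of 4 lower and 1 higher ligands were the same with any single library left out, and the lower ones numbered 5 with library size alone and 6 by DESeq2 or without the filter.

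**Figure D2:**
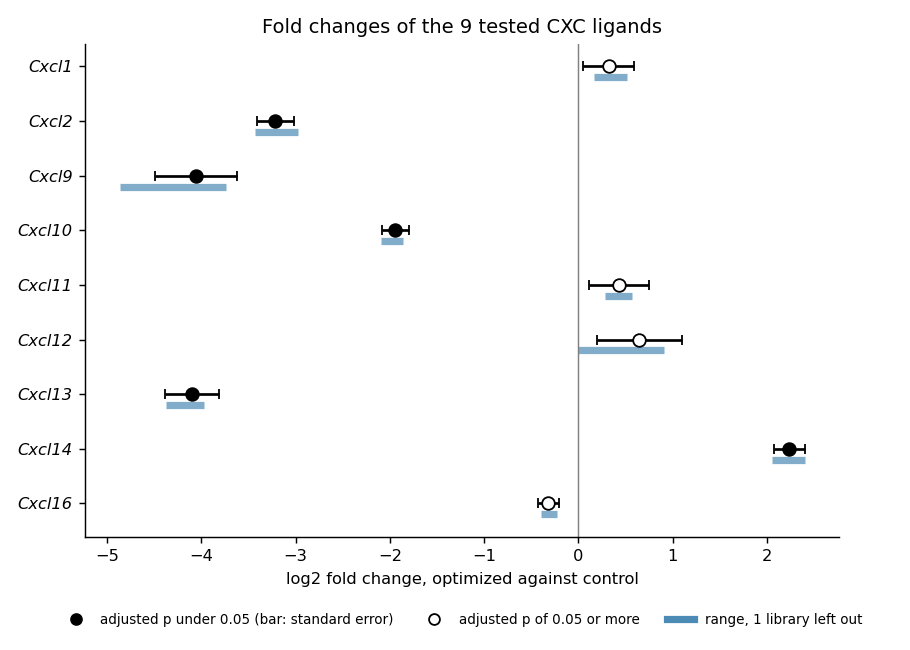
Log2 fold change of the 9 tested ligands in optimized against control cultures, with the standard error as a bar, a filled point for an adjusted p under 0.05 (edgeR) and a thick line for the range when each library was left out. Cxcl2, Cxcl9, Cxcl10 and Cxcl13 lie below -1.8 over the whole of their ranges, Cxcl14 lies above 2, and the range of Cxcl12 reaches 0.

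Among the CXCR2 ligands, Cxcl2 fell while its neighbour Cxcl1 did not pass the test. Cxcl2 (GRCm39, chr5:91051730-91053797, plus strand), a neutrophil attractant that macrophages release early in inflammation, had 21.2, 21.3 and 20.1 CPM in control cultures and 1.42, 2.81 and 2.47 CPM in the optimized ones. The control libraries lay close together and all of them far above the optimized libraries. The mean fell from 20.9 ± 0.677 CPM to 2.23 ± 0.724 CPM (SD, n = 3 per group). The decrease was 9.29-fold, or -3.22 in log2 (SE 0.20, edgeR adjusted p = 1.9e-06). Cxcl1 (chr5:91039094-91040974, plus strand), the closest relative of Cxcl2 in role, was low in all libraries, at 1.49, 2.20 and 1.54 CPM in control and 2.13, 2.60 and 1.79 CPM in optimized cultures. The groups overlapped, with a log2 fold change of 0.32 (SE 0.27, edgeR adjusted p = 0.42). The number of Cxcl2 reads per Cxcl1 read was 14.3, 9.67 and 13.1 within the control libraries but 0.667, 1.08 and 1.38 within the optimized ones, without overlap. This ratio does not depend on the scaling between libraries, and its log2 difference was -3.61, with an exact two-sided permutation p of 0.1 (0.1 after adjustment over 5 pairs of ligands), the smallest that 3 against 3 libraries allow.

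Cxcl3 (chr5:90933962-90937459, plus strand), another CXCR2 ligand of the locus, was near the limit of detection, with 4, 24 and 8 counts in control cultures and 0, 1 and 0 counts in optimized cultures. Control replicate 2 held most of these reads. The sums of 36 and 1 counts stood at a ratio of 31.5 after scaling, with an exact 95% interval of 5.30 to 1277 that covers counting error only. Without the filter on low counts the gene passed the test (edgeR adjusted p = 0.0053), and so it did by DESeq2 (adjusted p = 0.0099). Of the windows of 50 bases in the transcripts, 5.84% of those of Cxcl2 and 4.29% of those of Cxcl3 recur in another gene, most of them shared between these genes, so a small part of the reads could be split between them.

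**Figure D3:**
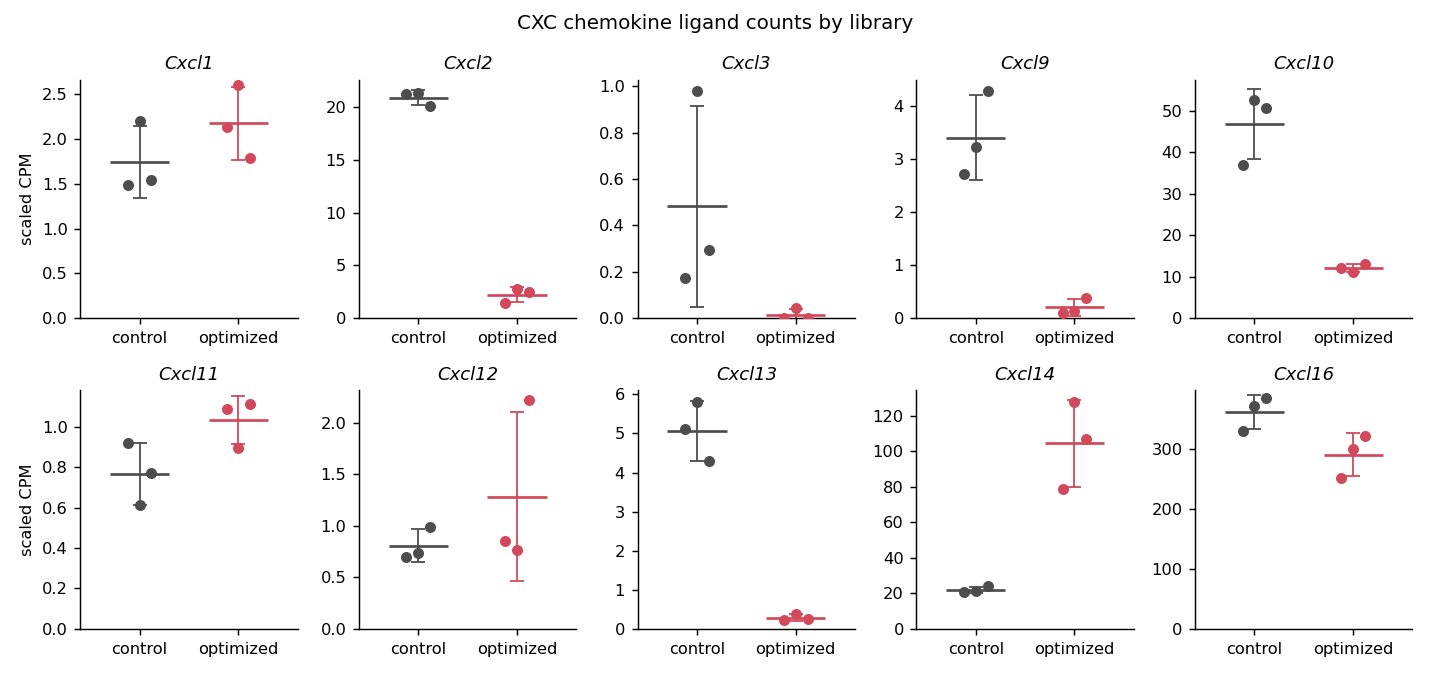
Scaled CPM of the CXC ligands in each of the 6 libraries, 1 panel per gene with a linear axis from 0 of its own scale, with a point per library, a horizontal line at the group mean and bars for the SD (n = 3). Cxcl2 lies between 20.1 and 21.3 CPM in control cultures and at or below 2.81 CPM in the optimized ones, while Cxcl14 goes from at most 24.1 CPM to at least 79.0 CPM.

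The CXCR3 ligands, neighbours on chromosome 5, did not move as a block, since Cxcl9 and Cxcl10 fell and Cxcl11 did not pass the test. Cxcl10 (chr5:92494497-92496748, minus strand), induced by type I and type II interferons as well as by NF-kB, was the most abundant of them. It measured 37.1, 52.6 and 50.8 CPM in control cultures and 12.2, 11.2 and 13.1 CPM in optimized cultures. The mean went from 46.8 ± 8.51 CPM to 12.2 ± 0.935 CPM (SD, n = 3 per group), or by -1.94 in log2 (SE 0.15, edgeR adjusted p = 6.2e-06). No optimized library came near a control library, and the transcript was still readily detected under the optimized conditions, at 258, 264 and 271 raw counts.

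Cxcl9 (chr5:92469206-92475945, minus strand), which depends most on interferon-gamma, was a low transcript in control microglia and close to the detection limit in the optimized cultures. Its raw counts were 62, 79 and 117 in control cultures and 2, 3 and 8 in optimized cultures. In CPM these were 2.71, 3.22 and 4.28 against 0.095, 0.128 and 0.387. The groups were well apart, with a log2 fold change of -4.06 (SE 0.44, edgeR adjusted p = 7.6e-05), or 16.7-fold. The size rests on few optimized reads, and without optimized replicate 3, the highest of its group, it was -4.87. Within libraries, the log2 ratio of Cxcl9 to Cxcl10 had a mean of -3.79 in control and -6.18 in optimized cultures (difference -2.39, exact permutation p = 0.1, adjusted 0.1), again the smallest p possible.

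Cxcl11 (chr5:92507403-92513344, minus strand), annotated as a protein-coding gene by GENCODE and as a transcribed pseudogene by RefSeq, was at 0.918, 0.612 and 0.769 CPM in control and 1.09, 0.894 and 1.11 CPM in optimized cultures. The lowest optimized library lay just under the highest control library, and the log2 fold change was 0.43 (SE 0.32, edgeR adjusted p = 0.36). Its log2 ratio to Cxcl10 had a mean of -5.94 in control and -3.57 in optimized cultures (difference 2.37, exact permutation p = 0.1, adjusted 0.1). Its counts are uncertain, because 40.93% of its 50-base windows recur in transcripts of the gene Gm2673.

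Among the ligands known for homeostatic roles, Cxcl14 rose, Cxcl13 fell and Cxcl12 did not pass the test. Cxcl14 (chr13:56436352-56444603, minus strand), an ancient and highly conserved CXC member made by many epithelia and by brain cells, was the ligand that rose. It measured 20.8, 21.5 and 24.1 CPM in control and 79.0, 127.6 and 106.8 CPM in optimized cultures. The lowest optimized library thus held more than the highest control library by a wide margin, and the spread within the optimized group was the larger of both. The mean went from 22.1 ± 1.74 CPM to 104 ± 24.4 CPM (SD, n = 3 per group). In log2 the increase was 2.24 (SE 0.16, edgeR adjusted p = 5.5e-06), and it stayed between 2.06 and 2.41 with any single library left out.

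Cxcl13 (chr5:96104810-96108927, plus strand), which attracts B cells to lymphoid follicles, was expressed at a modest level in control microglia and was close to the detection limit in the optimized cultures. It had 117, 142 and 117 counts in control and 5, 9 and 5 counts in optimized cultures, or 5.12, 5.79 and 4.28 CPM against 0.237, 0.383 and 0.242 CPM. Every control library lay far above every optimized library. The log2 fold change was -4.10 (SE 0.29, edgeR adjusted p = 4.3e-06). Markers of B cells, the cells that Cxcl13 attracts, summed to 0.085 to 0.331 CPM over all libraries.

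Cxcl12 (chr6:117144945-117158328, plus strand), in the body a ligand of stromal and endothelial cells, had 16, 18 and 27 counts in control cultures and 18, 18 and 46 counts in optimized cultures. Only optimized replicate 3, at 2.23 CPM, stood out from the other 5 libraries, which lay between 0.700 and 0.988 CPM. The log2 fold change was 0.65 (SE 0.45, edgeR adjusted p = 0.33), and it was -0.0046 without that library. Optimized replicate 3 was also the library with the high fibroblast markers, for example Col3a1, a fibrillar collagen, at 72.0 CPM against 8.98 to 21.0 CPM elsewhere. By edgeR and by DESeq2, 0 of the 6 fibroblast markers passed the test between the groups (1 was higher at an unadjusted p under 0.05), none of them was at 0 in all libraries, and their part in the Cxcl12 value was not tested. Within libraries, the log2 ratio of Cxcl13 to Cxcl12 had a mean of 2.66 in control and -2.02 in optimized cultures, and that of Cxcl14 to Cxcl12 had 4.79 and 6.50 (exact permutation p = 0.1, adjusted 0.1, for each).

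Cxcl16 (chr11:70344517-70352620, minus strand) was the most abundant of the 10 ligands in both conditions, by reads and by the deposited FPKM. It measured 331, 372 and 386 CPM in control and 252, 301 and 322 CPM in optimized cultures. Every optimized library was below every control library, but by little, and the mean went from 363 ± 28.5 CPM to 291 ± 36.1 CPM (SD, n = 3 per group). The log2 fold change of -0.32 (SE 0.11) just missed the threshold, with an edgeR adjusted p of 0.056. It passed in 7 of 16 alternative settings, among them DESeq2 (adjusted p = 0.031) and library size alone (-0.45, adjusted p = 0.0054), although relative to the median of all genes the value was -0.33 under either scaling. It passed in none of the 6 fits without a single library. The merged GENCODE exons of Cxcl16, 5123 bp long, overlap those of Zmynd15 by 2132 bp and those of Med11 by 2213 bp on the opposite strand. The deposited FPKM imply a length of 1862 bp for Cxcl16, so the overlap in the gene model that was counted may be smaller. Without a known strand setting or annotation, how reads of the overlap were assigned is not known. Zmynd15 itself was lower (log2 fold change -0.44, SE 0.11, edgeR adjusted p = 0.011).

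Compared per gene length, the ligands formed a steep order that was rearranged between the conditions. The lengths implied by the deposited FPKM were 1862 bp for Cxcl16, 1131 bp for Cxcl10, 3209 bp for Cxcl14 and 1207 bp for Cxcl13. The merged GENCODE exons of these genes span 5123, 2252, 3427 and 1150 bp, so levels and shares between genes depend on the lengths used. In control microglia Cxcl16 led with 203 ± 12.6 FPKM, followed by Cxcl10 with 43.2 ± 7.58, Cxcl2 with 19.6 ± 1.34, Cxcl14 with 7.18 ± 0.312, Cxcl13 with 4.39 ± 0.795 and Cxcl1 with 1.86 ± 0.468 FPKM (SD, n = 3). Below them came Cxcl9 at 1.18 ± 0.236, Cxcl3 at 0.486 ± 0.448, Cxcl11 at 0.485 ± 0.099 and Cxcl12 at 0.114 ± 0.018 FPKM. In this order the libraries of neighbours overlapped only for Cxcl9 with Cxcl3 and for Cxcl3 with Cxcl11. In the optimized cultures Cxcl16 remained at the top with 148 ± 17.0 FPKM, and Cxcl14 took the next place with 30.7 ± 6.01, ahead of Cxcl10 with 10.2 ± 1.12. Cxcl1 at 2.09 ± 0.321 and Cxcl2 at 1.89 ± 0.557 FPKM overlapped, so their order was not resolved. Cxcl11 followed at 0.595 ± 0.091 FPKM, and Cxcl13 at 0.224 ± 0.055, Cxcl12 at 0.166 ± 0.108, Cxcl9 at 0.065 ± 0.052 and Cxcl3 at 0.012 ± 0.021 FPKM each overlapped with the neighbour in this order.

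The 10 ligands together summed to 259, 301 and 285 FPKM in the control libraries and 171, 196 and 214 FPKM in the optimized libraries. In scaled CPM the sums were 421, 481 and 493 in control and 349, 447 and 450 in optimized libraries. By that measure the groups overlapped, so a lower total was not shown by both measures. Cxcl14 went from 2.55% ± 0.154 to 15.8% ± 2.24 of the FPKM sum (SD, n = 3 per group). Cxcl10 went from 15.2% ± 1.59 to 5.31% ± 0.807 and Cxcl2 from 6.99% ± 0.771 to 0.962% ± 0.218. Cxcl16 made up 72.2% ± 1.10 of the control sum and 76.3% ± 1.79 of the optimized sum. By reads without length correction the direction of the Cxcl16 share was the opposite, 78.1% and 70.3%, while those of Cxcl14, Cxcl10 and Cxcl2 were the same. Shares within a library cannot all rise, and no test was run on them.

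**Figure D4:**
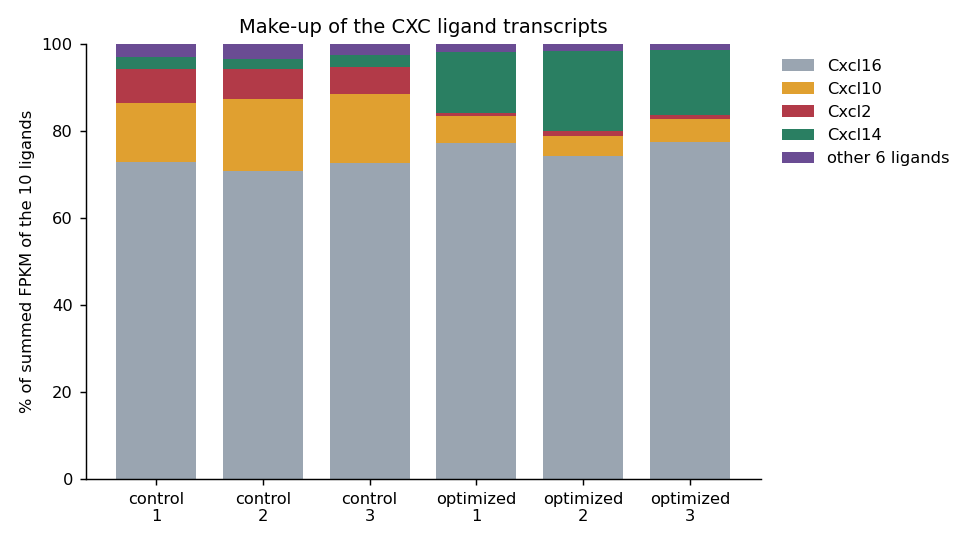
Percent of the summed FPKM of the 10 CXC ligands taken by each ligand, as 1 stacked bar per library from 0 to 100%. Cxcl16 takes 70.9% to 77.5% of every library, and Cxcl14 takes 14.1% to 18.3% of the optimized libraries against 2.38% to 2.66% of the control libraries.

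Of the 5 other CXC ligand genes, only Pf4 (Cxcl4), also a marker of border-associated macrophages, had enough counts for the test. It measured 137, 163 and 171 CPM in control and 175, 292 and 214 CPM in optimized cultures (log2 fold change 0.53, SE 0.17, edgeR adjusted p = 0.041). The groups were apart by a narrow margin, and the gene did not pass in 10 of 16 alternative settings, including 5 of the 6 fits without a single library (adjusted p up to 0.16) and library size alone (0.39, adjusted p = 0.064). Cxcl5 had at most 3 counts and Ppbp at most 12 counts in a library.

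Of the receptors, Cxcr4 rose, whereas its ligand Cxcl12 was low and did not pass the test. Cxcr4, the receptor that retains leukocytes in Cxcl12-rich niches, had 45.5, 59.9 and 59.2 CPM in control and 142.8, 153.7 and 144.9 CPM in optimized cultures. The mean went from 54.9 ± 8.11 to 147 ± 5.81 CPM (SD, n = 3 per group), a 2.68-fold rise (1.42 in log2, SE 0.11, edgeR adjusted p = 9.9e-06). Of 10 receptors and scavengers, 4 could be tested, with 1 higher, 0 lower (0 also by DESeq2 and at an unadjusted p under 0.05 in edgeR) and a median log2 fold change of 0.85. Of all tested genes 14.7% were higher and 15.2% lower, so nothing particular to the receptors can be read from 1 of 4. Cxcr3, the receptor of Cxcl9 and Cxcl10, was low and did not pass (log2 fold change -0.24, SE 0.34, edgeR adjusted p = 0.66). Ackr3, which scavenges Cxcl12, was at 0.204 to 0.622 CPM in control and 0.511 to 1.55 CPM in optimized cultures (log2 fold change 1.11, SE 0.52, edgeR adjusted p = 0.15). Ackr4, which scavenges mainly CC chemokines, had a log2 fold change of 0.60 (SE 0.21, edgeR adjusted p = 0.060) and passed without optimized replicate 1 (0.70, adjusted p = 0.028), which makes 2 receptors higher. Cxcr2 had at most 5 counts, Cxcr5 at most 10 and Cxcr6 at most 3 counts in a library, so receptors for Cxcl1 to Cxcl3, Cxcl13 and Cxcl16 were near or below the detection limit in these cells.

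Of the interferon signalling genes that lie upstream of Cxcl9 and Cxcl10, 10 of 17 tested were lower and 2 higher (15.2% and 14.7% of all tested genes). The lower ones numbered 7 without control replicate 2, 8 without control replicate 1 or 3, and 7 at an adjusted p under 0.01. Irf7, the amplifier of the type I interferon response, went from 200 ± 11.9 to 58.7 ± 10.5 CPM (SD, n = 3 per group; log2 fold change -1.77, SE 0.13, edgeR adjusted p = 4.7e-06). Irf1, a mediator of the interferon-gamma response, went from 95.3 ± 6.63 to 32.0 ± 3.77 CPM (-1.58, SE 0.11, edgeR adjusted p = 3.4e-06). The receptor chain Ifngr1 fell by 1.26 on the log2 scale, Stat2 by 0.91 and the feedback protease gene Usp18 by 0.77. Tyk2, Irf5, Irf9 and Jak1 fell as well. Ifnar2, a chain of the type I receptor, rose by 0.75, and Irf8, a factor that sets macrophage and microglial identity, by 0.55. The interferon genes themselves were barely seen, with at most 3 counts of Ifnb1 in a library and 0 counts of Ifng in all 6 libraries, which allows up to 0.110 to 0.145 CPM.

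NF-kB genes and regulators of mRNA decay, through which Cxcl1 and Cxcl2 transcripts are made and degraded, were lower in 11 of 17 cases and higher in 0 by edgeR and by DESeq2 (1 at an unadjusted p under 0.05), against 15.2% and 14.7% of all tested genes, with a median log2 fold change of -0.32. The count was 7 without control replicate 1, 7 without optimized replicate 3 and 6 at an adjusted p under 0.01. Nfkbie, an inhibitor and target of NF-kB, showed the lowest value of the list, with 55.9, 56.6 and 61.5 CPM against 10.3, 13.1 and 12.7 CPM (log2 fold change -2.27, SE 0.11, edgeR adjusted p = 5.0e-07). Nfkb2, the precursor of p52, went from 185 ± 5.85 to 67.0 ± 1.81 CPM (-1.47, SE 0.08, edgeR adjusted p = 7.9e-07), and its partner Relb fell by 1.13 on the log2 scale. The feedback inhibitor Nfkbia fell by 0.94 on that scale, whereas the falls of Rela and Nfkb1 were 0.34 and 0.31. Zfp36, whose product destabilises cytokine mRNAs, was lower as well (-0.31, edgeR adjusted p = 0.023). Zc3h12a, a ribonuclease gene for inflammatory mRNAs, had 0.27 (edgeR adjusted p = 0.072) and Elavl1, an mRNA stabiliser, had -0.04 (edgeR adjusted p = 0.77).

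The proteases that trim or shed CXC ligands went both ways, with 4 of 11 tested genes lower and 4 higher (15.2% and 14.7% of all tested genes) and a median log2 fold change of 0.06. Mmp9, which cleaves several CXC ligands, went from 29.3 ± 6.84 to 1.23 ± 1.20 CPM (SD, n = 3 per group; log2 fold change -4.60, SE 0.43, edgeR adjusted p = 3.1e-05), and had -5.75 without optimized replicate 3. With 14, 10 and 54 counts in optimized cultures, Mmp9 passed the filter on low counts only through the control libraries. Mmp13 fell by 2.97 on the log2 scale, and Mmp12, which inactivates neutrophil-attracting CXC ligands, went from 843 ± 99.2 to 153 ± 5.84 CPM (-2.46, SE 0.11, edgeR adjusted p = 2.6e-07). Mmp14 fell by 0.80. Mmp8 rose by 1.57 from a low level and Mmp2, which cuts Cxcl12, by 0.98. Of the sheddases of Cxcl16, Adam10 rose from 144 ± 7.90 to 275 ± 16.1 CPM (0.94, SE 0.09, edgeR adjusted p = 2.5e-05), and Adam17 was at 301 ± 1.47 and 267 ± 8.41 CPM (-0.17, edgeR adjusted p = 0.13). Ctss rose by 0.47. Transcript levels give neither the amount nor the processing of the chemokine proteins.

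**Figure D5:**
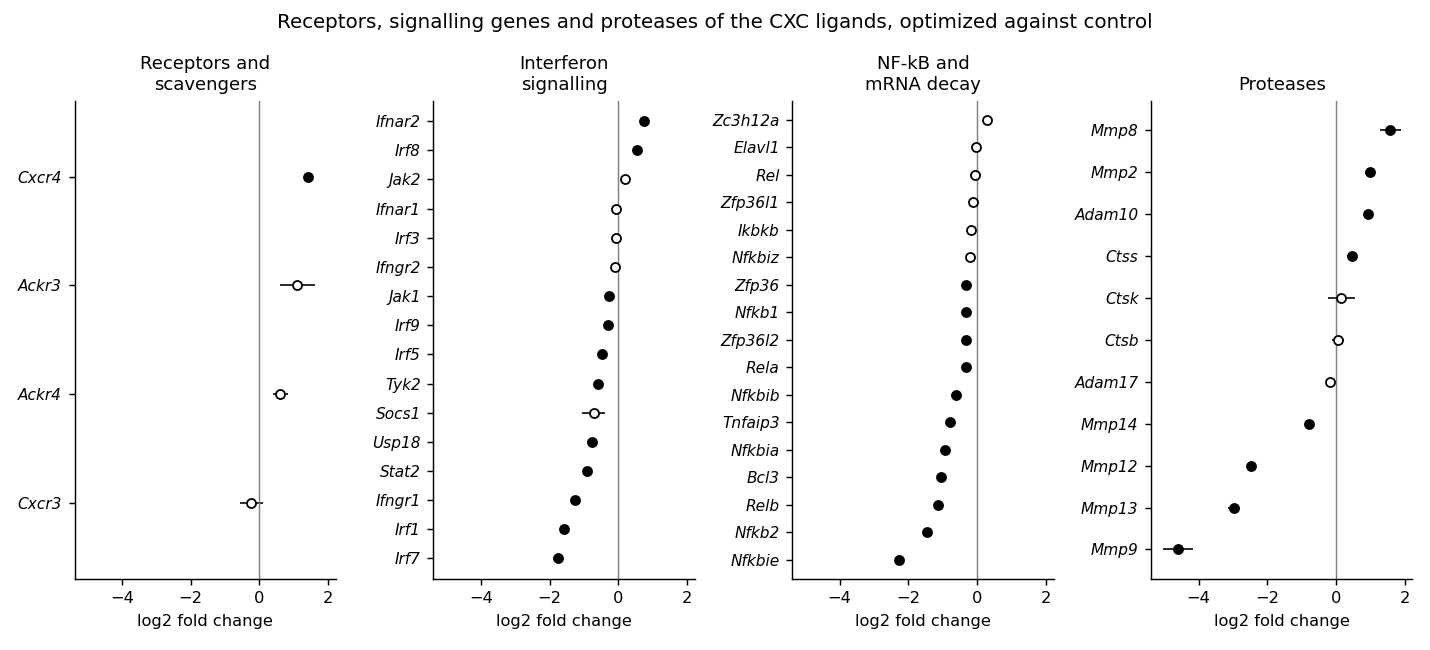
Log2 fold change in optimized against control cultures, with its standard error, for tested genes of 4 lists in 1 panel each, with filled points for an adjusted p under 0.05 (edgeR). Cxcr4 is the filled point among the receptors, Irf7 and Nfkbie are lowest in their panels at -1.77 and -2.27, and the proteases spread from -4.60 (Mmp9) to 1.57 (Mmp8).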

How the data were processed

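RNA-seq was performed by the authors on 6 libraries of neonatal mouse microglia. Reads were aligned to the mm39 build (HISAT2) and assigned to genes (featureCounts) in Galaxy by the authors, who deposited raw counts, without normalization, and FPKM values for the same 41079 genes. Versions, annotation and strand setting were not given in the sources used here. Samples were grouped by their labels, and 0 columns of other samples were present.

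Differential expression was tested on the counts by edgeR 4.0.16 under R 4.3.3 (filterByExpr, TMM factors, quasi-likelihood test without covariates), and two-sided p-values were adjusted over the 14618 genes tested at a threshold of 0.05. Scaled CPM are counts over the TMM-scaled library size. Levels between genes were compared by the deposited FPKM, and within-library ratios by an exact permutation test. The common dispersion was 0.0164, a coefficient of variation of 0.13, so members with under 50 counts carry large errors. The procedure was also run on simulated data that gave every gene the common dispersion and changed fewer genes than were called here. That setting is simpler than these data, so it checks the code and not the error rates here. Intervals and detection limits (3 counts per library) cover counting error only.

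Members and gene lists were chosen with earlier results of these data known. All 10 ligands and Cxcr2, Cxcr3, Cxcr4, Cxcr5, Cxcr6 and Ackr3 were named, and of each list at least the 2 lowest and the 2 highest log2 fold changes. One of the interferon signalling genes is counted with its list but not reported here. Coordinates are those of GENCODE M39 (GRCm39). Promoters came from a RefSeq table of the GRCm38.p6 build and were placed on GRCm39 by exact match, and 8 of 10 members had an entry. Alternatives were RLE factors, library size alone, other count filters (none, or 10 in every library), DESeq2 1.42.0, a replicate block, each library left out, limma 3.58.1 on log2(FPKM + 1) or log2(FPKM + 0.1), a minimum mean FPKM of 1, and a threshold of 0.01.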

Additional observations from a re-analysis of the deposited data

How the results depend on the processing

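The ligand calls kept their direction and their side of the threshold for Cxcl2, Cxcl9, Cxcl10, Cxcl13 and Cxcl14 under every alternative in which the gene could be tested. Of the list counts, 2 ligands rather than 4 were lower with at least 10 counts in every library, and up to 6 elsewhere. NF-kB and mRNA decay genes numbered 6 lower at an adjusted p under 0.01 and 7 to 13 with 1 library left out. Interferon signalling genes numbered 7 lower at an adjusted p under 0.01 and 7 to 10 with 1 library left out. Receptors numbered 1 to 2 higher with 1 library left out, and 2 of the proteases were higher by limma at a mean FPKM of at least 1. With 1 library left out, Cxcl12 had -0.0046 (without optimized replicate 3) to 0.90, and Cxcr3 had -0.53 to 0.0048 (without optimized replicate 2), so both reversed, each from a value that missed the threshold. By summed CPM in place of summed FPKM, the shares in the control and optimized libraries were 78.1% and 70.3% for Cxcl16, 10.02% and 2.98% for Cxcl10, 4.76% and 25.0% for Cxcl14, and 4.51% and 0.528% for Cxcl2, since long genes weigh more in CPM. On log2(FPKM + 1), which shrinks low genes, Cxcl9 had -1.03 and Cxcl13 -2.13. By limma on log2 FPKM, 28.4% to 33.1% of called genes were higher, against 49.1% by edgeR, and a minimum mean FPKM of 1 put the median of all genes at -0.13. Over the named single genes, 386 comparisons with an alternative kept direction and call, 10 lost the call, 9 gained it and 2 reversed.

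Whether the replicate numbers pair the samples could not be settled with 3 libraries per group. The correlations of same-numbered libraries were 0.27, -0.012 and 0.18, and those of libraries with different numbers ran from -0.29 to 0.19. With the replicate number as a block, 4924 genes were called in place of 4360, 5 ligands were lower (Cxcl16 included, adjusted p = 0.011), and 2 receptors were higher (Ackr3 included, adjusted p = 0.0495). Low counts limit Cxcl1, Cxcl3, Cxcl9, Cxcl11, Cxcl12 and Cxcl13, for which smaller changes could be missed at this depth.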

Other observations

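Of the other CXC ligand genes, Cxcl17 was read only in optimized replicate 1, and Cxcl15 had most of its few reads there. Cxcl17, a mucosal ligand of epithelia, had 56 counts there and 0 in the other 5 libraries, and Cxcl15, a ligand of lung epithelium, had 7 counts there and 2 in control replicate 1. Dpp4, a protease that inactivates CXCR3 ligands, had 22 counts in the same library and 1 count in optimized replicate 3. Without the filter on low counts, Cxcl17 would pass the test in edgeR (adjusted p = 0.0069) on the reads of this single library, and it would not by DESeq2 (adjusted p = 0.22). Other genes read in that library but with at most 1 count elsewhere were Pigr with 171 counts, Sprr2f with 168 and Sftpd with 111. The 4 lower and 1 higher calls among the ligands were the same without it.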
